A study of Arabidopsis thaliana with 8 samples.

Results

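The RALF-like genes encode small secreted peptides of the rapid alkalinization factor family. They were taken as all array probe sets assigned to a single gene whose annotated symbol is RALFL followed by a number. This rule gave 11 genes of the 13287 loci that had a single-gene probe set, each with 1 probe set. The members are RALFL18, RALFL22, RALFL24, RALFL25, RALFL26, RALFL27, RALFL28, RALFL31, RALFL32, RALFL33 and RALFL34. The reference table holds 34 loci named RALF or RALFL with a number, and the other 23, RALF1 and RALF23 among them, were not analysed here.

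RALF peptides are made as longer precursors, some of which are cut by the subtilase S1P. Outside the cell they bind receptor kinases of the FERONIA family together with small membrane-anchored co-receptors, and they also bind leucine-rich repeat extensins in the cell wall. Binding raises the pH of the wall space, restrains cell expansion and, for some members, tunes immune receptor complexes in leaves.

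The plants were wild-type Arabidopsis thaliana of the strain Columbia-0, grown on soil and 4 weeks old at treatment. Transcript levels in fully expanded leaves were read on 8 Affymetrix arrays, 2 per group, with 1 sample from each of 2 independent experiments; replicate numbers 1 and 2 may mark these experiments, but the labels do not say so. Untreated plants formed 1 group, and the others were collected 4 days after treatment with clothianidin or imidacloprid, both neonicotinoid insecticides, or with the defence hormone salicylic acid, each at 4 mM. The labels do not say how the agents were applied, and untreated leaves are the control used here.

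All values are deposited log2 expression summaries, so a difference of 1 is a doubling, and they compare a gene with itself across arrays, never 1 gene with another. Replicate arrays correlated over probe sets at 0.919 (salicylic acid) to 0.969 (imidacloprid). RNA degradation widens the gap between 3′ and 5′ actin control probe sets. This gap was 2.17 on untreated replicate 2 and 1.75 on clothianidin replicate 2, and between 0.74 and 1.41 on the other arrays. Of 27 listed tissue markers, 4 had a single-gene probe set matched to a locus, and the others were not read. RCA (Rubisco activase, a leaf photosynthesis gene) lay between 13.22 and 14.37, and MGH3, a histone gene of male gametes, between 2.20 and 2.26. With 2 arrays a group, their number sets the precision.

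RALFL34 and RALFL24 had their own lowest values after imidacloprid, yet no RALF-like gene passed the test in any of the 6 comparisons of groups. RALFL34 was 17.6-fold lower and RALFL24 9.88-fold lower in imidacloprid leaves than in untreated leaves, with both treated arrays below both untreated arrays. Of the other 9 members, 4 stayed within 0.25 of themselves on the log2 scale over all 8 arrays. The test was limma's moderated test over all probe sets with Benjamini-Hochberg adjustment, and a call needed an adjusted p under 0.05. When 1 array was left out, RALFL34 or RALFL18 did pass in some cases, which are given with those genes.

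**Figure D1:**
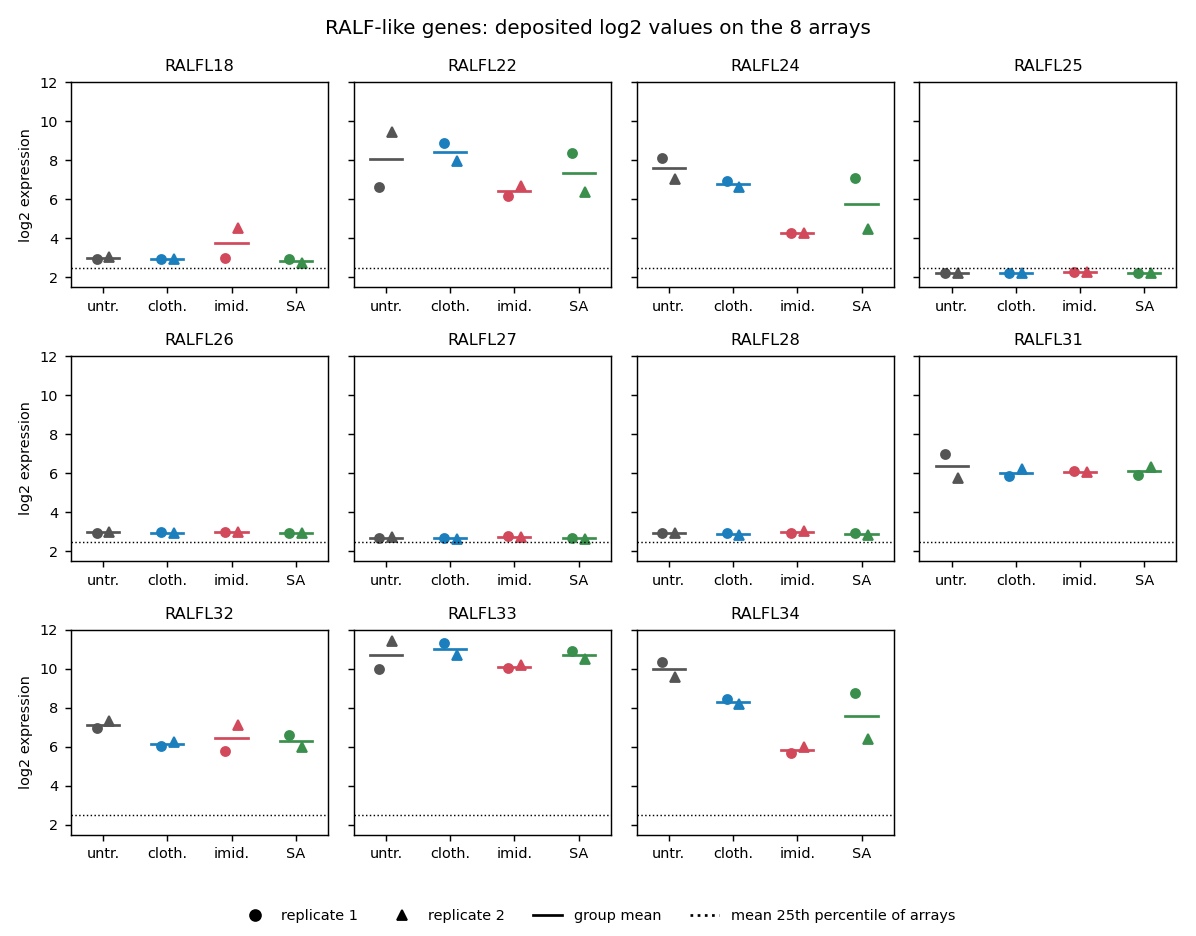
Deposited log2 expression of the 11 RALF-like genes (1 panel each) in untreated, clothianidin (cloth.), imidacloprid (imid.) and salicylic acid (SA) leaves. Circles are replicate 1, triangles replicate 2, bars the means of 2 arrays, and the dotted line is the mean 25th percentile of the arrays (2.49). RALFL34 and RALFL24 lie lowest on the 2 imidacloprid arrays and on salicylic acid replicate 2, while RALFL25 to RALFL28 are flat.

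RALFL34 encodes a peptide known from root studies as a ligand of the receptor kinase THESEUS1, with a part in lateral root initiation. Its log2 values, replicate 1 first, were 10.36 and 9.58 untreated, 8.44 and 8.20 after clothianidin, 5.68 and 5.98 after imidacloprid, and 8.76 and 6.43 after salicylic acid. All 6 treated arrays lay below both untreated arrays. Of the 11 members it alone showed this order (9.09% of them), a count made after the values were seen; 4.18% of all probe sets showed it.

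The imidacloprid minus untreated difference of RALFL34 was -4.14 on the log2 scale (SE 0.81; 95% confidence interval -6.25 to -2.03; limma adjusted p = 0.102, not a call). The fold of 17.6 has an interval of 4.09 to 76.1. The group means were 9.97 ± 0.55 and 5.83 ± 0.21 (SD, n = 2). Within replicate number 1, where the actin gaps of the 2 arrays were 0.85 and 0.87, RALFL34 differed by -4.68, and within number 2, where they were 2.17 and 1.11, by -3.60. The difference passed when either salicylic acid array was left out (limma adjusted p = 0.0379 without replicate 1 and without replicate 2). Leaving out 1 of them takes the wide salicylic acid pair out of the pooled spread, and the SE became 0.32. Over all 16 alternatives the limma adjusted p ran from 0.0379 to 0.326.

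With the other agents RALFL34 lay between these levels. Clothianidin minus untreated was -1.65 (95% confidence interval -3.76 to 0.46; limma adjusted p = 0.996), from a mean of 8.32 ± 0.17 (SD, n = 2). Salicylic acid minus untreated was -2.38 (-4.49 to -0.27; adjusted p = 0.975 in limma), from a mean of 7.60 ± 1.65 (SD, n = 2). The salicylic acid arrays differed by 2.34 from each other, so that without replicate 1 the difference was -3.54 and without replicate 2 it was -1.21. From high to low the group means ran untreated, clothianidin, salicylic acid, imidacloprid; clothianidin and salicylic acid overlapped, with 0.72 between them (-1.39 to 2.83).

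RALFL24 followed the same order of groups. Its log2 values were 8.14 and 7.02 untreated, 6.94 and 6.63 after clothianidin, 4.26 and 4.30 after imidacloprid, and 7.08 and 4.49 after salicylic acid. Both imidacloprid arrays lay below all 6 others; salicylic acid replicate 1 lay above untreated replicate 2. Imidacloprid minus untreated was -3.31 (SE 0.92; 95% confidence interval -5.70 to -0.91; limma adjusted p = 0.164), and its adjusted p ran from 0.0572 to 0.477 over the alternatives. The differences were -3.88 within replicate number 1 and -2.73 within number 2. Clothianidin minus untreated was -0.80 (-3.20 to 1.60) and salicylic acid minus untreated -1.80 (-4.19 to 0.60), the latter -1.06 within number 1 and -2.53 within number 2; without salicylic acid replicate 1 it was -3.09, and without replicate 2 it was -0.50.

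A guard cell lineage marker, FMA (FAMA), was also lower on both imidacloprid arrays: it read 5.41 and 4.94 in untreated leaves, 3.15 and 4.14 with imidacloprid, 4.59 and 5.09 with clothianidin, and 5.59 and 4.56 with salicylic acid. The trichome gene TRY read 4.01 and 3.66 in untreated and 3.39 and 4.94 in imidacloprid leaves. These were the only listed guard cell and trichome markers with a single-gene probe set, and the others were not read. The part of FMA and TRY in the result was not tested. In whole leaves, fewer cells of a type and less RNA per cell cannot be told apart.

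The profile of RALFL34 over the 8 arrays was compared with those of 13436 other single-gene probe sets, as the root mean square difference of log2 values after each was centred on its own mean. RALFL34 was used because its group means spanned the widest range of the members above the mean 25th percentile (4.14). The median over all compared was 1.62. The 5 most alike were AT5G48460 at 0.26, AT1G66430 at 0.31, scpl25 (serine carboxypeptidase-like) at 0.34, RALFL24 at 0.37 and WLIM2a, of the actin-binding LIM protein family, at 0.38. RALFL24 was thus the fourth closest of 13436. No other member came near: the next, RALFL22, stood at 1.33, rank 1677. The distance also depends on how widely a gene varies, so a flat gene could not come near whatever its pattern. The flat RALFL25 stood at 1.62, like the median.

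The 4 non-members of these 5 lay lower after imidacloprid without passing limma's test. They were picked by likeness to RALFL34 over the same arrays, so this direction was set by the choice. AT5G48460 differed by -3.55, AT1G66430 by -3.91, scpl25 by -4.13 and WLIM2a by -4.38, with limma adjusted p between 0.0993 and 0.159. WLIM2a read 9.49 and 8.34 in untreated leaves, 4.52 and 4.55 after imidacloprid, and 8.56 and 5.14 after salicylic acid. The 8 arrays are shared by all these profiles, so differences between arrays enter all of them alike.

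**Figure D2:**
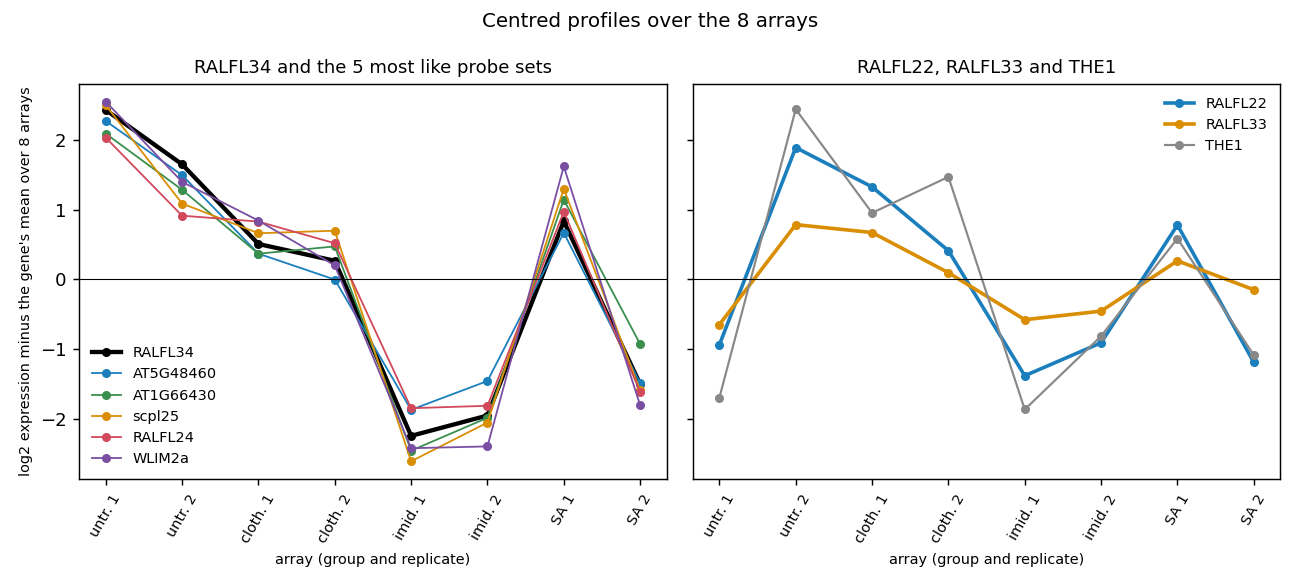
Log2 expression minus each gene's mean over the 8 arrays (vertical axis) by group and replicate (horizontal axis). Left, RALFL34 in black with its 5 closest probe sets; in all 6 profiles both imidacloprid arrays are among the 3 lowest, and salicylic acid replicate 2 lies below replicate 1. Right, RALFL22, RALFL33 and THE1, which are high on untreated replicate 2 and low on untreated replicate 1.

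RALFL22 and RALFL33 encode peptides that act through FERONIA-type receptors, in the stigma among other places. RALFL22 varied more between the 2 untreated arrays than between any 2 group means. It read 6.64 and 9.47 untreated, 8.90 and 7.99 after clothianidin, 6.19 and 6.67 after imidacloprid, and 8.36 and 6.39 after salicylic acid. The imidacloprid arrays overlapped the untreated ones, and the difference of -1.62 had an interval from -4.67 to 1.42. It was -0.44 within replicate number 1 and -2.80 within number 2, and -3.04 without untreated replicate 1 and -0.21 without untreated replicate 2. Clothianidin minus untreated was 0.39 (-2.65 to 3.44) and turned sign with the replicate number, from 2.27 to -1.48; salicylic acid minus untreated was -0.68 (-3.72 to 2.36), from 1.72 to -3.08.

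RALFL33 showed the same split in a narrower range. Its values were 9.99 and 11.42 untreated, 11.31 and 10.73 after clothianidin, 10.06 and 10.18 after imidacloprid, and 10.90 and 10.49 after salicylic acid. The imidacloprid arrays lay below all the clothianidin and salicylic acid arrays but between the 2 untreated ones, so imidacloprid minus untreated was -0.59 (-1.95 to 0.77), 0.07 within number 1 and -1.24 within number 2. The difference was -1.30 when untreated replicate 1 was left out and 0.13 when untreated replicate 2 was. In each of the 4 groups the replicate difference of RALFL33 had the sign of that of RALFL22: 1.43 and 2.83 in untreated leaves, -0.58 and -0.92 with clothianidin, 0.12 and 0.47 with imidacloprid, -0.41 and -1.97 with salicylic acid. The actin gap was 0.85 on untreated replicate 1 and 2.17 on replicate 2, and its part in this split was not tested.

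RALFL31 read 6.96 and 5.73 in untreated leaves and between 5.84 and 6.34 on the 6 treated arrays, all of which lay between the 2 untreated values. Its differences from untreated leaves were -0.26, -0.33 and -0.22 with imidacloprid, clothianidin and salicylic acid, with intervals from -1.40 to 0.88, -1.48 to 0.81 and -1.36 to 0.93. The imidacloprid difference was 0.35 without untreated replicate 1 and -0.88 without untreated replicate 2. RALFL32 read 6.95 and 7.35 untreated, 6.03 and 6.25 after clothianidin, 5.80 and 7.14 after imidacloprid, and 6.62 and 5.98 after salicylic acid. Both clothianidin and both salicylic acid arrays lay below the untreated pair, with differences of -1.01 (95% confidence interval -2.32 to 0.31) and -0.85 (-2.16 to 0.47), and imidacloprid overlapped it at -0.68 (-2.00 to 0.64). The imidacloprid value was -0.01 without imidacloprid replicate 1 and -1.35 without replicate 2. In reference gene order 12 annotated genes lie between RALFL31 and RALFL32.

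RALFL25, RALFL26, RALFL27 and RALFL28 were flat. Over the 8 arrays RALFL25 ran from 2.22 to 2.27, RALFL26 from 2.93 to 2.99, RALFL27 from 2.63 to 2.77 and RALFL28 from 2.81 to 3.03. The largest difference from untreated leaves among them, RALFL28 after imidacloprid, was 0.07 (95% confidence interval -0.09 to 0.23). RALFL25, whose values lay under the mean 25th percentile of 2.49, and RALFL26 are neighbours with 1 annotated gene between them and are known as pollen peptides. The male gamete gene MGH3 was as flat, between 2.20 and 2.26.

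RALFL18 stood apart through 1 array. It read 2.96 and 3.02 untreated, 2.97 and 2.94 after clothianidin, 3.01 and 4.52 after imidacloprid, and 2.95 and 2.72 after salicylic acid. Over the 7 arrays other than imidacloprid replicate 2 its range was 0.30. Imidacloprid minus untreated was 0.77 (95% confidence interval -0.52 to 2.07; limma adjusted p = 0.465). Without imidacloprid replicate 1 the single remaining array gave 1.53 and a call (limma adjusted p = 0.0287, with the lone array assumed to vary like the other groups), and without replicate 2 the difference was 0.02. The same left-out array gave calls for RALFL18 against clothianidin and salicylic acid leaves (limma adjusted p = 0.0304 and 0.0262).

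As a family the RALF-like genes gave 0 calls of 11 in each comparison with untreated leaves. After imidacloprid 0.312% of all probe sets were called, and after clothianidin and after salicylic acid 0%. At an unadjusted p under 0.05 in limma the members counted 2 of 11 after imidacloprid (RALFL24 and RALFL34, both lower; 19.3% of all probe sets), 0 after clothianidin (2.63% of all) and 1 after salicylic acid (RALFL34, lower; 3.38% of all). The share after imidacloprid is near that of all probe sets. The median difference of the 11 was -0.26 after imidacloprid, -0.03 after clothianidin and -0.16 after salicylic acid, beside 0.02, -0.02 and -0.02 over all probe sets. These 3 comparisons share the untreated arrays. With salicylic acid all 11 differences were below 0, from -2.38 to -0.01, as were 14544 of all 22746 probe sets. Those of RALFL25 to RALFL28 were only -0.02 to -0.05. The differences of RALFL22, RALFL25 to RALFL28, RALFL31 and RALFL33 turned sign in some alternative.

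**Figure D3:**
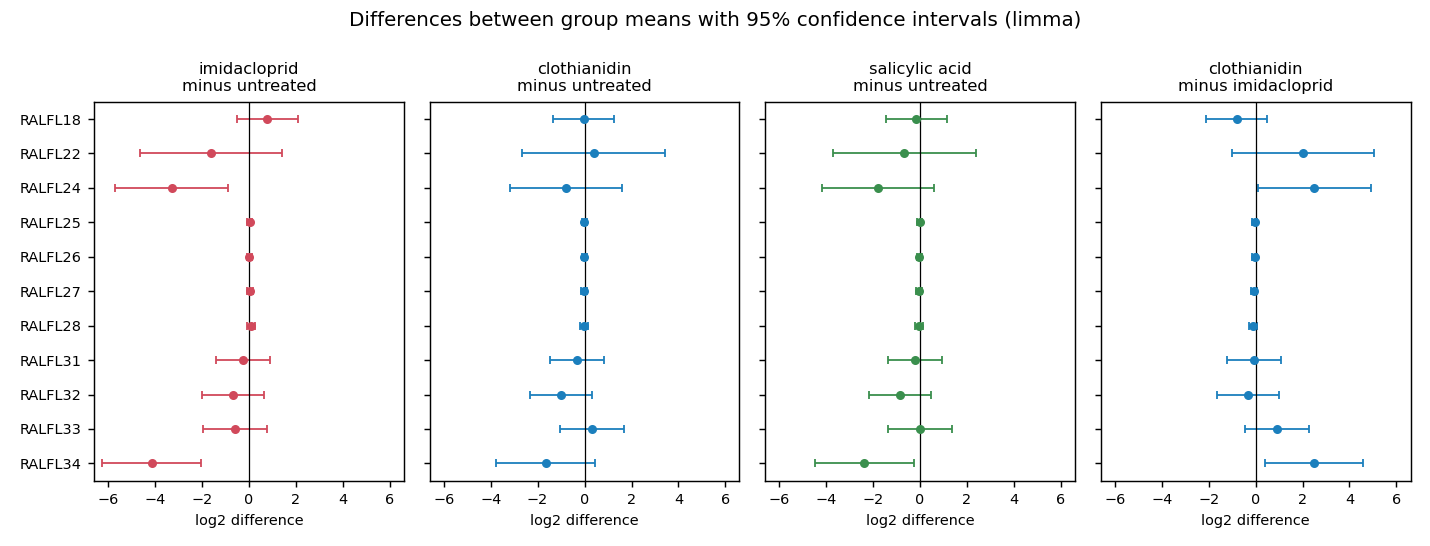
Log2 differences between group means (horizontal axis) of the 11 RALF-like genes, with 95% confidence intervals from limma, for the 3 agents against untreated leaves and for clothianidin minus imidacloprid. The intervals of RALFL34 and RALFL24 lie below 0 for imidacloprid and above 0 for clothianidin minus imidacloprid. That of RALFL34 also lies below 0 for salicylic acid. None of the differences shown passed at an adjusted p under 0.05.

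The 2 insecticides were given at the same dose and harvested at the same time, so they were compared directly. In clothianidin the nitroguanidine group is open-chain, while in imidacloprid it is closed into a ring; their chlorinated heterocycles are a thiazole and a pyridine. RALFL34 was higher with clothianidin by 2.49 on the log2 scale (95% confidence interval 0.38 to 4.60; limma adjusted p = 0.319), a 5.60-fold difference with both clothianidin arrays above both imidacloprid arrays. RALFL24 was higher by 2.51 (0.11 to 4.90; limma adjusted p = 0.351), also with no overlap. RALFL22 differed by 2.02 (-1.03 to 5.06) and RALFL33 by 0.90 (-0.46 to 2.26), again with both clothianidin arrays on top. RALFL18, RALFL25, RALFL26, RALFL27 and RALFL28 went the other way, with both clothianidin arrays below both imidacloprid arrays. They differed by -0.81 for RALFL18 and by -0.03 to -0.11 for the flat genes. The share of all probe sets without overlap is not given here, so these orders are not set against it. RALFL31 and RALFL32 differed by -0.07 (-1.21 to 1.07) and -0.33 (-1.65 to 0.99), intervals that allow more than a doubling in either direction for RALFL31. No member passed (0 of 11; 0.0967% of all probe sets), and 2 of 11 had an unadjusted p under 0.05 in limma, beside 13.8% of all.

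Imidacloprid against salicylic acid gave 0 calls of 11 (0.0835% of all) and 0 of 11 at an unadjusted p under 0.05 in limma (12.9% of all). RALFL34 differed by -1.76 (95% confidence interval -3.87 to 0.34), by -3.08 within replicate number 1 and -0.45 within number 2. RALFL24 differed by -1.51 (-3.91 to 0.89), by -2.82 and -0.20. On salicylic acid replicate 2 both genes were thus close to their imidacloprid levels, and on replicate 1 close to their clothianidin levels. Clothianidin against salicylic acid gave 0 of 11 by either threshold in limma (0% and 1.22% of all probe sets).

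The partners of the peptides were taken from a list of 41 loci: receptor kinases of the FERONIA family, co-receptors, wall-bound leucine-rich repeat extensins, the protease S1P and downstream genes. A single-gene probe set existed for 19 of them. None passed in limma's test against untreated leaves after any of the 3 agents (0 of 19 each; 0.312%, 0% and 0% of all probe sets after imidacloprid, clothianidin and salicylic acid). At an unadjusted p under 0.05 the limma counts were also 0 of 19, beside 19.3%, 2.63% and 3.38% of all. Over the arrays 10 of the 19, the pollen tube receptor genes ANX1 and ANX2 among them, varied by less than 0.25. These 10 were dim: each averaged less than 2.49, the 25th percentile level given above. Background signal was not measured, so a decrease in these 10 may not be detectable. Their part in the count of 0 of 19 thus does not show that they were steady. The reference names 5 of the 19 by symbol and gives the other 14 by locus number only.

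FER, the receptor kinase FERONIA, varied more between the 2 untreated arrays than between any 2 group means. It read 9.57 and 10.33 untreated, 9.83 and 10.09 after clothianidin, 9.78 and 9.75 after imidacloprid, and 9.63 and 9.93 after salicylic acid. All 6 treated values lay between the 2 untreated ones, and the differences were 0.01, -0.19 and -0.17 for clothianidin, imidacloprid (-0.92 to 0.54) and salicylic acid. S1P, the protease that cuts some RALF precursors, ran from 5.35 to 6.36, with differences of 0.01 after imidacloprid (-0.65 to 0.67), -0.34 after clothianidin and 0.16 after salicylic acid.

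THE1, the THESEUS1 receptor gene, varied more between the 2 untreated arrays than between any 2 group means. It read 6.66 and 10.80 untreated, 9.32 and 9.83 after clothianidin, 6.50 and 7.55 after imidacloprid, and 8.95 and 7.28 after salicylic acid. Imidacloprid minus untreated was -1.71 (95% confidence interval -5.61 to 2.19), -0.17 within replicate number 1 and -3.26 within number 2. Its centred profile stood 1.62 from that of RALFL34, the gene of its known ligand, 0.55 from RALFL22 and 1.04 from RALFL33. Such a distance also depends on how widely each gene varies. The flat RALFL25 stood 1.62 from RALFL34, 1.18 from RALFL22 and 0.52 from RALFL33. THE1, RALFL22 and RALFL33 were all low on untreated replicate 1 and high on untreated replicate 2, where RALFL34 and RALFL24 ran the other way.

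**Figure D4:**
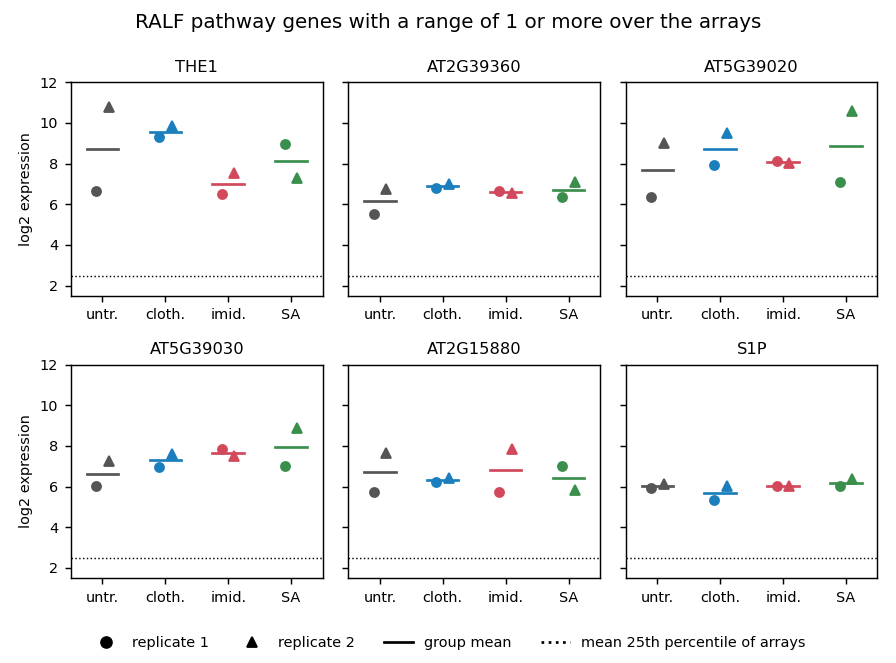
Deposited log2 expression of the 6 measured RALF pathway genes whose values ranged over 1 or more across the 8 arrays, drawn as for the RALF-like genes. THE1 spans 6.50 to 10.80 with its 2 untreated arrays near the ends, while S1P stays within 5.35 to 6.36.

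Among the listed loci without a symbol, AT5G39030 had the largest differences upward relative to untreated leaves after imidacloprid and salicylic acid. It read 6.03 and 7.25 in untreated leaves, 7.85 and 7.50 after imidacloprid, and 6.99 and 8.86 after salicylic acid. Imidacloprid minus untreated was 1.03 (-0.95 to 3.02) with no overlap, and salicylic acid minus untreated was 1.29 (-0.70 to 3.27) with overlap. Its neighbour by locus number, AT5G39020, read 6.34 and 9.02 in untreated and 7.09 and 10.60 in salicylic acid leaves, higher on replicate 2 both times.

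Other peptide families gave a frame for these counts. After imidacloprid 1 of 5 CLE genes, which encode short peptides perceived by receptor kinases, was called, and 0 of 8 LCR genes, which encode small cysteine-rich proteins, in limma's test, with 2 in each family at an unadjusted p under 0.05; of all probe sets 0.312% were called and 19.3% had such a p. Their medians were -0.55 and 0.04, beside -0.26 for the RALF-like genes. After clothianidin and after salicylic acid neither family had a call in limma, and 1 CLE and 0 LCR genes had an unadjusted p under 0.05 in each, beside 2.63% and 3.38% of all probe sets.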

How the data were processed

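Total RNA of leaves was hybridised to Affymetrix arrays, 2 per group. The deposited unit is log2 expression of a probe set. The submitters' processing notes name RMA and affy as what the authors used; versions, the order of steps and any later centring are not given in the sources used here. All 8 columns matched a label. The values were used as deposited, without 64 control probe sets.

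Genes were named from the platform table, which gave 13513 single-gene probe sets, matched through gene identifiers with the TAIR10.1 table; 1 member, RALFL22, was matched by symbol. The genome build is not given in the sources used here, so coordinates are left out.

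Group means were fitted with limma 3.58.1 (R 4.3.3), lmFit and eBayes over all 8 arrays (residual df 4, prior df 0.766). All 6 pairs of groups were tested, two-sided, with Benjamini-Hochberg adjustment over 22746 probe sets. With 2 arrays a group, calls rest on the spread pooled over groups, and nothing beyond the labels shows how far the replicates are independent. The alternatives covered the prior, the arrays in the fit, a replicate block, dim probe sets, scaling and array weights. The fit was tested on simulated data. Members, lists and tests were chosen with earlier results of these data known. The rule for named genes took every member, the measured pathway list and the 5 probe sets most like the member with the widest range of group means. Figures were drawn with matplotlib 3.10.9.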

Additional observations from a re-analysis of the deposited data

How the results depend on the processing

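In limma, 16 alternatives were run: an intensity trend with a robust prior, median centring, repeated quantile normalization, array weights, dim probe sets filtered out, a replicate block, a fit on the 4 arrays of a comparison, the arrays of the highest actin difference left out together, and each of the 8 arrays left out. The count of RALF-like genes called stayed 0 in all of them for clothianidin and salicylic acid against untreated leaves and against each other. In these comparisons 0% of all probe sets were called in every alternative that kept 2 arrays in both groups. The count of 0 members is thus no result about the RALF-like genes. Leaving out 1 array gave counts from 0 to 1 for imidacloprid minus untreated, clothianidin minus imidacloprid and imidacloprid minus salicylic acid, through RALFL18 or RALFL34 as given above; fewer arrays then set the pooled spread. The count of pathway genes called stayed 0 throughout, where few of all probe sets were called either. Replicate numbers may mark the 2 experiments but were not taken as pairs, since the labels do not say so. The replicate differences of 2 groups correlated from -0.002 to 0.523, above 0.1 in 4 of 6 pairs of groups. The replicate block gave 0 members called in all 6 comparisons. Of all probe sets it called 0.189% for imidacloprid minus untreated, 0.00879% for clothianidin minus imidacloprid and 0.0132% for imidacloprid minus salicylic acid. In the other comparisons it called 0%. Over all probe sets, the 71 called for imidacloprid minus untreated became 43 under the replicate block, and between 0 (without the arrays of the highest actin difference) and 465 (without either salicylic acid array) over all alternatives. Of 66 differences (11 members, 6 comparisons), 35 turned sign in some alternative, and none of the 13 with a size of at least 1 did. A choice by size in the same arrays favours an unchanged sign, so this does not show that the 13 are robust. Some of them shrank to near 0. RALFL22 went from -1.62 to -0.21 for imidacloprid minus untreated and from 1.07 to 0.09 for clothianidin minus salicylic acid. The lowest-mean probe set per locus could not be tried, since no member has several probe sets. Background signal was not measured here, so a decrease in the flat members, which lay near or below the 25th percentile of the arrays, may not be detectable.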
